A study of Mus musculus with 48 samples.

Results

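The genes described here encode the proteins that close the seams between brain endothelial cells: *Cldn5*, *Cldn12*, *Ocln*, *Tjp1*, *Jam2*, *F11r*, *Marveld2*, *Esam* and *Cdh5*. They were taken by name from the deposited expression table, where each of the 9 had a row among 24973 genes. The table came from 48 bulk RNA-sequencing libraries of 4 cell types of the neurovascular unit (NVU): microglia (MG), astrocytes (AC), pericytes (PC) and endothelial cells (EC), sorted by flow cytometry from the ipsilateral (ischemic) and contralateral (control) hemispheres of mice with stroke. Male C57BL/6 wild-type mice aged 12 to 15 weeks underwent transient middle cerebral artery occlusion (tMCAO) with 1 h of occlusion and 23 h of reperfusion, and both hemispheres were taken at 24 h. Each of the 8 groups had 6 replicates, and a replicate was a pool of 3 to 4 mice whose hemispheres gave all 4 cell types. All control cells therefore came from operated mice, sham-operated mice were not part of the comparison, and mice with a mild neurological deficit had been left out by the authors. EC were gated as CD45-/ACSA2-/VECAD+ cells without NG2 or PDGFRβ, and PC as CD45-/ACSA2-/VECAD- cells positive for both NG2 and PDGFRβ. AC were CD45- cells high for ACSA2 and without NG2, PDGFRβ or VECAD, and MG were CD45low/CD11b+ cells. VECAD is the product of *Cdh5*, so the level of *Cdh5* across cell types was selected by the sort and is given as a description only.

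Tight junctions are belts of transmembrane proteins at the apical end of the lateral membrane of neighboring endothelial cells, and in brain capillaries they force solutes to cross through the cell rather than between cells. Claudins form the paracellular strands, occludin and tricellulin (the product of *Marveld2*, found where the corners of several cells meet) are MARVEL proteins of these strands, the junctional adhesion molecules and ESAM are immunoglobulin-like proteins that bind across the cleft, and ZO-1 (the product of *Tjp1*) ties the strands to actin. VE-cadherin forms the adherens junction beneath them. Loss of claudin-5 and occludin protein from endothelial junctions is a well-known feature of blood-brain barrier (BBB) breakdown in stroke, whereas the data here measure their RNA.

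Values were DESeq2-normalized counts rounded to whole numbers, in libraries for which low values placed 1 read at 0.669 to 2.366 normalized counts and the reads on genes at 4900000 to 17100000. Values below about 2.01 to 7.1 normalized counts, which correspond to 3 reads, could not be told from 0 at this depth. For the 12 ipsilateral PC and MG libraries, the sample titles and the column names gave opposite cell types. The column names were followed, and under them all of the 10 microglia markers and all of the 10 endothelial markers were higher in every library of their own cell type than in any other library, as were 9 of 10 astrocyte markers and 6 of 10 pericyte markers. *Kcnj8* and *Abcc9*, a pair of brain pericyte markers, were at 3 to 348 and at 0 to 148 normalized counts in PC and reached 1378 and 793 elsewhere, while smooth muscle markers summed to 305671 to 472420 in contralateral PC, and the PC label is kept here as the name of the gate. The libraries of contralateral EC replicate 2 (a mitochondrial share of 5.74% against 1.29% to 2.45% in its group, and a choroid plexus marker sum of 114347 against 468 to 21671), contralateral PC replicate 2 (a choroid plexus marker sum of 90028 against 14 to 10143, and an oligodendrocyte marker sum of 38800 against 982 to 5317) and ipsilateral MG replicate 2 (a neutrophil marker sum of 19215 against 4208 to 6587, and a mitochondrial share of 3.66%, the highest of its group) stood apart. Ipsilateral PC replicate 3 had the highest microglia marker sum of its group, 66398, though the others ranged from 694 to 53373. Ipsilateral MG replicate 3 was the shallowest of the 48 libraries, with 4900000 reads on genes and 1 read worth 2.366 normalized counts. Stroke results that changed without one of these libraries are given with and without it. Ipsilateral PC replicate 2 also had a choroid plexus marker sum of 47703, against 146 to 4953 in the rest of its group. Its oligodendrocyte marker sum was 26281, against 1546 to 12028. It was left out only together with contralateral PC replicate 2, and 0 of the 9 genes were then called in PC. The AC libraries also held much oligodendrocyte RNA, with the 7 oligodendrocyte markers summing to 48909 to 397493 in contralateral AC, against 1313 to 12166 in EC, 982 to 38800 in PC and 1910 to 10947 in MG, beside 254930 to 446576 for the 10 astrocyte markers.

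*Cldn5* (ENSMUSG00000041378, chr16:18776847-18778260, plus strand, GRCm38), which encodes the main claudin of brain capillaries, had 28965, 40347.5 and 57462 normalized counts as the lowest, median and highest value in contralateral EC. The corresponding values were 538, 918.5 and 2231 in contralateral PC, 61, 363 and 823 in contralateral AC, and 44, 326 and 610 in contralateral MG. No library of another cell type came within a factor of 10 of any EC library, and the fitted level in contralateral EC was 36.3-fold that in PC, 140-fold that in AC and 191-fold that in MG. On the log2(normalized count + 1) scale these differences were 5.18, 7.13 and 7.57 (SE 0.63; limma adjusted p = 4.77e-09, 6.69e-13 and 1.48e-13).

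*Cdh5* (ENSMUSG00000031871, chr8:104101625-104144511, plus strand), the gene of the sorting antigen, had 1767, 2245 and 3275 normalized counts in contralateral EC and at most 95 in contralateral PC, 56 in AC and 45 in MG. Its mean outside EC, 2.41% of the EC mean in PC, 0.878% in AC and 0.791% in MG, lay within the range that 10 other endothelial markers (*Pecam1*, *Ptprb*, *Flt1*, *Kdr*, *Tie1*, *Tek*, *Emcn*, *Slco1a4*, *Abcb1a* and *Erg*) had in the same libraries. That range was 1.36% to 2.88% in contralateral PC, 0.607% to 2.57% in AC and 0.164% to 2.2% in MG, and none of the 10 was at 0 throughout a group. *Cldn5* lay within it in AC (0.987%) and MG (0.772%) and just above it in PC (3.08%). The PC and AC gates excluded VECAD+ cells, and whether these reads came from EC carried through the sort was not tested.

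*Esam* (ENSMUSG00000001946, chr9:37528078-37538319, plus strand), which encodes an endothelial adhesion molecule of the immunoglobulin superfamily, had 18869, 30350 and 33899 normalized counts in contralateral EC and 7617, 9666 and 12549 in contralateral PC. The ranges of EC and PC did not overlap, but the PC mean was 33.5% of the EC mean, above the level of each of the 10 endothelial markers in those libraries. The fitted difference of EC minus PC was 1.57 on the log2 scale (SE 0.52; limma adjusted p = 0.015), a 2.98-fold difference. In AC (1.69% of the EC mean) and MG (1%) *Esam* lay within the range of the endothelial markers.

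**Figure D1:**
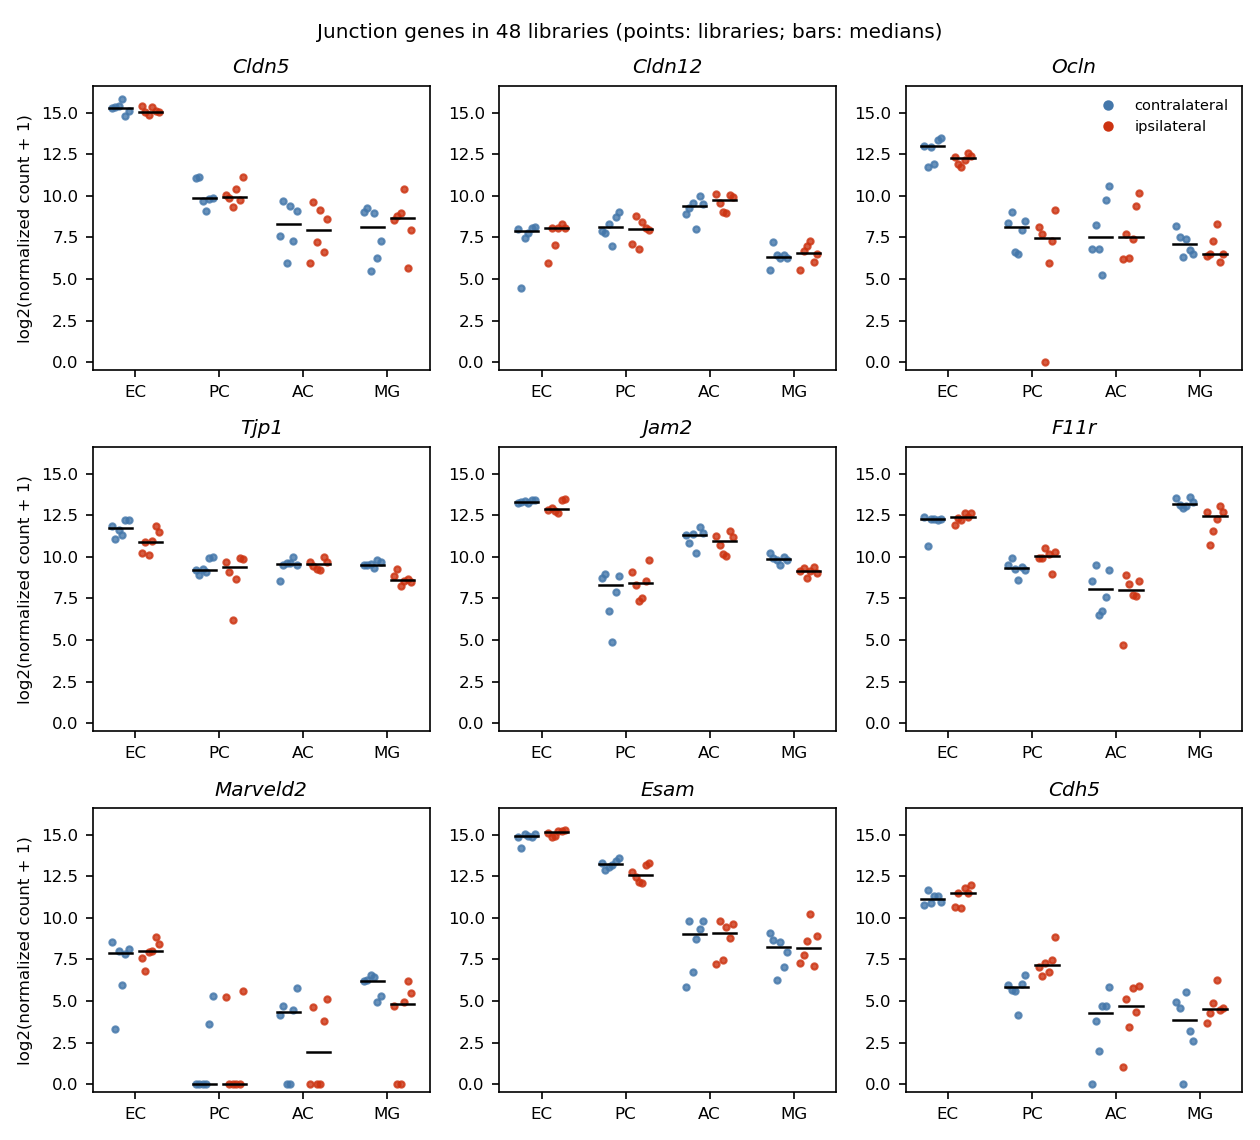
Levels of the 9 genes in each of the 48 libraries, as log2(normalized count + 1), for contralateral and ipsilateral EC, PC, AC and MG; points are libraries (6 per group) and black bars are medians. *Cldn5* and *Cdh5* stood high in EC alone, *Esam* was also high in PC, *F11r* was high in EC and MG, and *Cldn12* was highest in AC.

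*Ocln* (ENSMUSG00000021638, chr13:100496507-100552718, minus strand), encoding occludin, had 3432, 7994 and 11298 normalized counts in contralateral EC. Outside EC the highest contralateral value was 520 in PC, 1550 in AC and 292 in MG, and no library overlapped the EC range. The means in PC (3.65% of the EC mean) and AC (6.65%) were above the range of the 10 endothelial markers, and that in MG (2.05%) was within it. The differences of EC minus PC, AC and MG were 4.91, 4.81 and 5.62 on the log2 scale (SE 0.88; limma adjusted p = 1.27e-05, 1.03e-05 and 8.14e-07). Among the contralateral AC libraries *Ocln* was at 872 and 1550 in replicates 5 and 6 and at 37 to 307 in the others; the summed ependymal markers were also highest in those replicates, at 7223 and 13306, and their part in the *Ocln* level was not tested.

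*Jam2* (ENSMUSG00000053062, chr16:84774123-84825928, plus strand), which encodes JAM-B, varied least among the genes in contralateral EC, with 9484, 10250 and 11123 normalized counts and a coefficient of variation of 6.14%. In AC it had 1220, 2552.5 and 3597 normalized counts, a larger share of its EC level than *Cldn5* had there. The AC mean was 23.6% of the EC mean and the MG mean 9.22%, both above all 10 endothelial markers, whereas the PC mean was 2.81% and within their range. The part of oligodendrocyte RNA in this AC level was not tested. The differences of EC minus PC, AC and MG were 5.67, 2.16 and 3.45 on the log2 scale (SE 0.41; limma adjusted p = 4.08e-15, 2.04e-05 and 2.06e-09).

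*Tjp1* (ENSMUSG00000030516, chr7:65296165-65371239, minus strand) had 2107, 3430.5 and 4734 normalized counts in contralateral EC. It was at 470 to 1027 in PC, 378 to 999 in AC and 629 to 889 in MG, so that its levels in the non-endothelial cell types overlapped one another and stayed below each EC library. Their means were 19.9%, 20.9% and 21.5% of the EC mean, above the range of the endothelial markers in each. The differences of EC minus PC, AC and MG were 2.33, 2.25 and 2.16 on the log2 scale (SE 0.36; limma adjusted p = 1.1e-06, 1.22e-06 and 3.31e-06). ZO-1 also lies beneath gap junctions and other cell contacts outside the endothelium.

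*F11r* (ENSMUSG00000038235, chr1:171437535-171464603, plus strand), which encodes JAM-A, a molecule also found on leukocytes and platelets, had its highest level in MG rather than EC. It had 7889, 9311.5 and 12421 normalized counts in contralateral MG and 1599, 4853 and 5413 in contralateral EC, and the ranges did not overlap. The MG mean was 225% of the EC mean, and EC minus MG was -1.25 on the log2 scale (SE 0.47; limma adjusted p = 0.0287; adjusted p 0.0192 to 0.129 over the alternatives). The value of 1599 came from contralateral EC replicate 2, and without that library EC minus MG was -0.97 with an adjusted p of 0.104. In the ipsilateral hemisphere the ranges overlapped, at 1676, 5770.5 and 8672 in MG and 3778, 5304 and 6333 in EC, and EC minus MG was 0.18 (SE 0.47; limma adjusted p = 0.819). Summed microglia markers in contralateral EC libraries were 0.292% to 5.69% of their mean over the MG libraries. Levels of *F11r* in PC and AC were lower than in EC in both hemispheres, by 2.70 and 3.99 contralaterally and 2.38 and 4.71 ipsilaterally on the log2 scale.

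*Cldn12* (ENSMUSG00000046798, chr5:5505015-5514873, minus strand), a claudin expressed in many tissues, was higher in the AC libraries than in EC. Contralateral AC libraries had 256, 668 and 1027 normalized counts, against 21, 234.5 and 272 in EC, 124, 277 and 513 in PC and 45, 79 and 147 in MG. The part of oligodendrocyte RNA in the AC level was not tested. The AC and EC ranges overlapped contralaterally but not ipsilaterally, where AC had 507, 867 and 1082 and EC 60, 265 and 310. EC minus AC was -1.90 contralaterally (SE 0.47; limma adjusted p = 0.000673) and -2.03 ipsilaterally (adjusted p = 0.000351). EC minus PC, at -0.80 and -0.28, and EC minus MG, at 0.98 and 1.08, did not pass the threshold in either hemisphere. Without contralateral EC replicate 2, in which *Cldn12* was at 21, contralateral EC minus MG became 1.55 and passed (limma adjusted p = 0.00156).

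*Marveld2* (ENSMUSG00000021636, chr13:100595957-100616971, minus strand), which lies 43238 bases from *Ocln* on the same strand (between the nearest ends of the genes), was low throughout. It had 9, 240 and 365 normalized counts in contralateral EC and 29, 73.5 and 95 in contralateral MG, and was at 0 in 4 of 6 PC libraries of each hemisphere. EC minus MG did not pass contralaterally (1.01, SE 1.23; limma adjusted p = 0.557) but did ipsilaterally (4.39, SE 1.23; limma adjusted p = 0.00396), where the ranges of 112 to 468 and 0 to 72 did not overlap. Contralateral EC minus AC passed (3.78; limma adjusted p = 0.00947) but not without replicate 3 (2.93; adjusted p = 0.0683).

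In all, 8 of the 9 genes were called higher in contralateral EC than in PC, 8 than in AC and 6 than in MG, a call being a limma adjusted p of at most 0.05 and a change of at least 1.5-fold in the fit of 48 libraries. Across all genes tested, 16.5%, 17.2% and 19.5% were called higher in EC in these comparisons. Called lower in EC were *Cldn12* against AC and *F11r* against MG, where 31.9% and 22.2% of all genes were. In the ipsilateral hemisphere the counts called higher in EC were 8 against PC, 8 against AC and 7 against MG, and 11.9%, 14.5% and 17.7% of all genes were; *Cldn12* was again lower than in AC, as were 29.1% of all genes. *Cdh5* is among each of these counts through the sort.

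**Figure D2:**
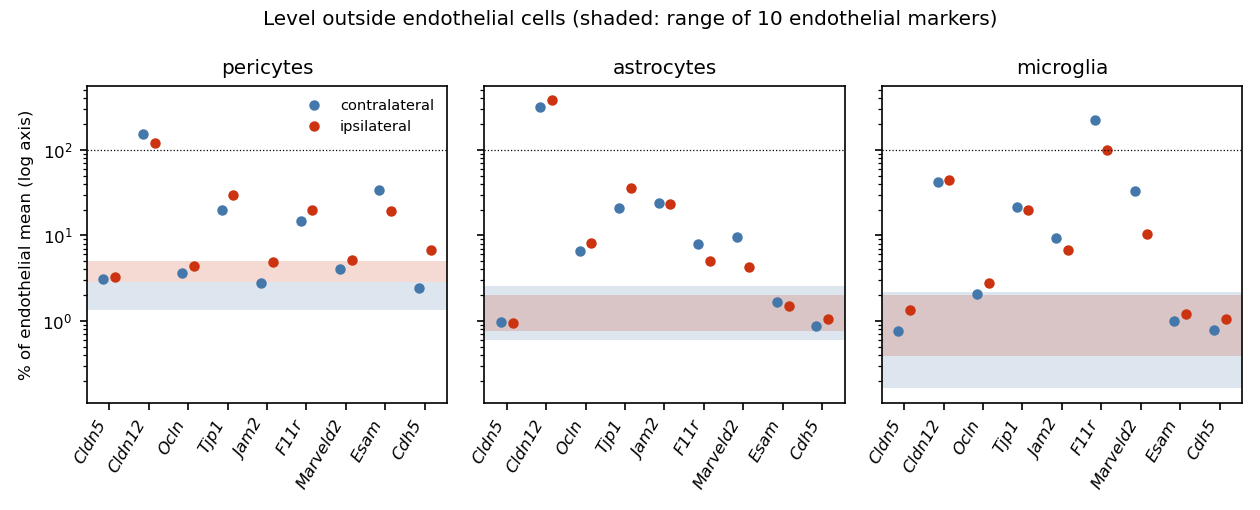
Mean level of each gene in PC, AC and MG as a percentage of its EC mean in the same hemisphere (log axis), with the range of 10 endothelial markers shaded. *Cldn5* and *Cdh5* lay in or near the shaded range except for *Cdh5* in ipsilateral PC (6.73%), while *Esam* in PC (33.5% contralaterally), *Jam2* in AC (23.6%), *Tjp1* in all 3 cell types and *F11r* in MG (225%) stood above it. Contralaterally, *Cldn12* and *Marveld2* in all 3 cell types also stood above it. So did *F11r* in PC and AC, *Jam2* in MG, and *Ocln* in PC and AC.

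Per kilobase of exon, different genes can be set roughly beside each other. Lengths were the union of all exons annotated in GENCODE M21, whichever transcript was expressed. Gene coordinates there equaled the deposited ones for 6 of the 9 genes, but not for *Cldn5*, *Cldn12* and *Tjp1*. On this scale contralateral EC had a mean of 28900 (SD 6810) normalized counts for *Cldn5* and 10200 (SD 1900) for *Esam*. A middle group of *Ocln*, *Jam2* and *F11r* followed at 1770 (SD 767), 1700 (SD 104) and 1660 (SD 524), which did not differ beyond their spread. *Cdh5* and *Tjp1* came next at 551 (SD 134) and 448 (SD 141), also within their spread, and *Marveld2* and *Cldn12* were lowest at 58.9 (SD 40.4) and 47.7 (SD 22.6). The gene with the highest level per kilobase was *Esam* in contralateral PC (3420), *Jam2* in contralateral AC (401) and *F11r* in contralateral MG (3720), and each held that place ipsilaterally, at 2350, 324 and 1980. In AC that place was within the spread, with *Jam2* at 401 (SD 135) and *Cldn5* next at 285 (SD 220) contralaterally.

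The 250 bases before the RefSeq start (GRCm38.p6) are shown for *Cldn5*, the gene with the widest contralateral gap between EC and MG apart from the sorting antigen, for *F11r*, the gene highest in MG, and for *Tjp1*, which was found in all cell types, so that the base composition of a gene high in EC alone can be set beside theirs. They lie at chr16:18776597-18776846 (plus strand), chr1:171437311-171437560 (plus strand) and chr7:65371245-65371494 (minus strand), are written 5′ to 3′ on the strand of the gene, and have their CpG dinucleotides in capitals.
Cldn5: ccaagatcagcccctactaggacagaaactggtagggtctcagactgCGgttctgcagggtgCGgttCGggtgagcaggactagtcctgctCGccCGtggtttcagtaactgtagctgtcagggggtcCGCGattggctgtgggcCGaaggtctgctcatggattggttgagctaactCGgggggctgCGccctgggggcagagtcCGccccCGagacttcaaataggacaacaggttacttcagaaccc
F11r: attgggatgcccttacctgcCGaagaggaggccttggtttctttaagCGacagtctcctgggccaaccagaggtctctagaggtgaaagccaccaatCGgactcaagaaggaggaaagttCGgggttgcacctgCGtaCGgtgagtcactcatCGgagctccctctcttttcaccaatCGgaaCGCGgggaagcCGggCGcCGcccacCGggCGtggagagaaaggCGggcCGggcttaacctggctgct
Tjp1: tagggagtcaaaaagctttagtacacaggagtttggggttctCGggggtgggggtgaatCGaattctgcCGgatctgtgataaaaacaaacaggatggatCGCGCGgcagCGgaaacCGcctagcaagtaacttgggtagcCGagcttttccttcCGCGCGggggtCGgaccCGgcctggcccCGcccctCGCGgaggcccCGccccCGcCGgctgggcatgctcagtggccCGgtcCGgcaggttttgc
CpG dinucleotides numbered 12, 17 and 22 in these windows, more than in 66.5%, 76.5% and 85.2% of 32841 RefSeq promoter windows, whose median was 6. The letters GGAA, the core bound by ETS factors, were searched on both strands and occurred 3 times in the windows of *F11r* and *Tjp1* and 0 times in that of *Cldn5*, while 93.5% of all windows held them at least once. CACCC, a core bound by KLF factors, was found at 2 positions in *Cldn5*, 2 in *Tjp1* and 0 in *F11r*, and in 52% of all windows. TATAAA was in none of the 3 windows and in 12.4% of all. Promoters of *Cldn12*, *Ocln* and *Marveld2* were matched as well, and those of *Jam2*, *Esam* and *Cdh5* were not.

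The stroke comparison asked how the RNA of each gene differed between the ipsilateral and contralateral hemispheres within a cell type. All 9 genes passed the minimum mean of 10 normalized counts in every cell type, and a gene was called when its limma adjusted p over all genes was at most 0.05, the change was at least 1.5-fold and the 6 values of either hemisphere all exceeded 10, which those of *Marveld2* in PC and AC and of *Cdh5* in AC did not. None of the 9 was called in EC, PC or AC, and 3 were called lower in MG. As these are bulk samples, a change in the number of cells carrying an RNA and a change in RNA per cell cannot be told apart.

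In EC, 0 of the 9 genes were called, where 0.491% of 13242 genes were, and 0 were called with replicate number as a block, where 0.551% were. At an unadjusted p under 0.05 the count was 1 of 9, *Tjp1*, against 11.9% of all genes. The median log2 fold change of the 9 was 0.19, beside -0.03 for all genes tested. Over the 10 endothelial markers, the summed level was 78067 to 196764 in ipsilateral EC and 112525 to 225121 in contralateral EC, and higher ipsilaterally in 1 of 6 pairs.

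*Tjp1* had 1088, 1917 and 3628 normalized counts in ipsilateral EC, against 2107, 3430.5 and 4734 contralaterally. The ranges overlapped, but the ipsilateral library was the lower in 6 of 6 pairs. The log2 fold change was -0.81 (SE 0.31; 95% interval -1.48 to -0.14; limma adjusted p = 0.311, and 0.14 to 0.636 over the alternatives). Levels of *Tjp1* were highest in replicates 5 and 6 of both hemispheres, and the mean difference within pairs was -0.93 over replicates 1 to 4 and -0.56 over replicates 5 and 6. Summed microglia markers in EC also separated these replicates, at 8133 to 23707 contralaterally in replicates 1 to 4 against 1217 to 1307 in replicates 5 and 6. Pericyte marker sums (medians 1409 and 774.5) and smooth muscle marker sums (1678.5 and 532) in EC were lower ipsilaterally in 6 of 6 pairs. The part of these markers in the *Tjp1* values was not tested.

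*Cldn5* had 29180, 34253.5 and 43955 normalized counts in ipsilateral EC, a range inside the contralateral one. It was lower ipsilaterally in 4 of 6 pairs and higher in 2, with a log2 fold change of -0.16 (SE 0.24; limma adjusted p = 0.85). The 95% interval ran from -0.67 to 0.34 on the log2 scale, so the data leave room for a change of either sign. For *Ocln* the ipsilateral values were 3367, 4876 and 6165, with 4 pairs lower and 2 higher, and the log2 fold change was -0.55 (SE 0.30; 95% interval -1.19 to 0.10; limma adjusted p = 0.507). The 4 lower pairs were those with contralateral values of 7930 to 11298, while the 2 others had 3432 and 3891.

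*Jam2* had 6253, 7540 and 11350 normalized counts in ipsilateral EC, lower in 5 of 6 pairs than contralaterally, with a log2 fold change of -0.33 (SE 0.19; limma adjusted p = 0.536). *Esam* went the other way, with 29231, 36236 and 39986 normalized counts ipsilaterally, higher in 5 of 6 pairs, at a log2 fold change of 0.27 (SE 0.22; limma adjusted p = 0.686). Neither passed. Values for *F11r* (0.34), *Cdh5* (0.19), *Cldn12* (0.26) and *Marveld2* (0.99) were above 0 on the log2 scale with limma adjusted p from 0.664 to 0.919. Beside *F11r*, the summed neutrophil markers (medians 362 and 2139.5) and platelet markers (medians 177.5 and 493) were higher in ipsilateral EC in 6 of 6 pairs. The EC gate took CD45- cells only, and the part of these markers was not tested.

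Contralateral EC replicate 2 had the lowest contralateral EC value for *Cldn12*, *Ocln*, *Tjp1*, *F11r*, *Marveld2* and *Esam*, but the highest for *Cdh5*. Without this library, 222 of 13076 genes were called in EC instead of 65, and still 0 of the 9. The log2 fold change of *Ocln* then was -0.74 (limma adjusted p = 0.163), that of *Tjp1* -0.94 (adjusted p = 0.14), that of *Marveld2* 0.26, that of *F11r* 0.07 and that of *Cldn12* -0.31.

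**Figure D3:**
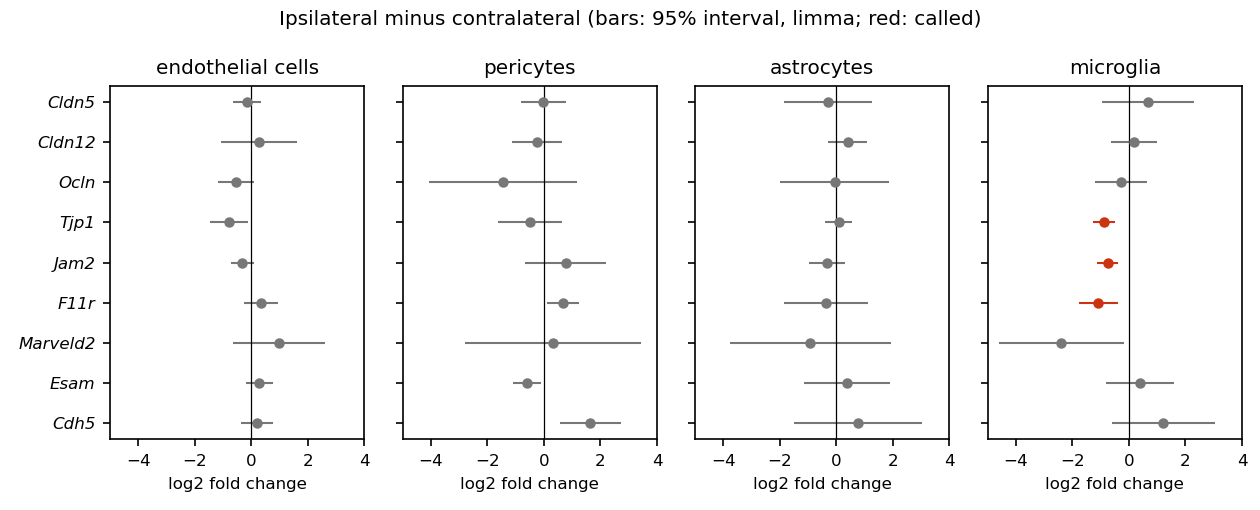
Log2 fold change of ipsilateral over contralateral for each gene in EC, PC, AC and MG, with 95% intervals from limma; red marks the 3 called genes. *Tjp1*, *Jam2* and *F11r* in MG were called, at -0.89, -0.75 and -1.08, and *Tjp1* in EC was at -0.81 without being called.

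In PC, 0 of the 9 genes were called, against 1.02% of 13597 genes, and 0 with the replicate block, against 1.66%. At an unadjusted p under 0.05 there were 3, *Cdh5* and *F11r* higher and *Esam* lower, against 15.4% of all genes. The median log2 fold change of the 9 genes, -0.03, was close to that of all genes, -0.04.

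*Esam* in PC had 7617, 9666 and 12549 normalized counts contralaterally and 4287, 6238.5 and 9905 ipsilaterally. The ranges overlapped, and the ipsilateral library was lower in 6 of 6 pairs. The log2 fold change was -0.60 (SE 0.23; 95% interval -1.08 to -0.12; limma adjusted p = 0.22; 0.0801 with the replicate block and up to 0.641 over the alternatives). The 4 smooth muscle markers summed to 140102 to 323604 in ipsilateral PC, lower in all 6 pairs, and the 10 pericyte markers to 41142 to 169048, lower in 5 of 6, and the part of either in the *Esam* values was not tested.

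*Cdh5* in PC had 17, 56 and 95 normalized counts contralaterally and 88, 144.5 and 450 ipsilaterally. The ranges overlapped by a narrow margin, and the ipsilateral library was higher in 6 of 6 pairs. The log2 fold change was 1.64 (SE 0.51; 95% interval 0.55 to 2.72; limma adjusted p = 0.138; 0.0956 to 0.311 over the alternatives). The 10 endothelial markers summed to 1424 to 5660 in contralateral PC and 1480 to 13765 in ipsilateral PC, and their sum was higher ipsilaterally in 2 of 6 pairs. Ipsilateral replicate 6 had both the highest *Cdh5* value, 450, and the highest endothelial marker sum, 13765. The mean of *Cdh5* in ipsilateral PC was 6.73% of that in ipsilateral EC, above the 2.83% to 4.98% of the 10 endothelial markers. The PC gate excluded cells with VECAD, the product of *Cdh5*, and the part of endothelial RNA in these *Cdh5* values was not tested.

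*F11r* in PC had 382, 629 and 958 normalized counts contralaterally and 499, 1067 and 1475 ipsilaterally, higher in 5 of 6 pairs, at a log2 fold change of 0.66 (SE 0.27; limma adjusted p = 0.255). The summed markers of microglia, where *F11r* had its highest level, were also higher ipsilaterally in 5 of 6 PC pairs, with medians of 3083 and 25553. The 7 neutrophil markers were higher in 5 of 6 (medians 30 and 2733.5) and the 6 platelet markers in 6 of 6 (medians 133 and 352). The PC gate took CD45- cells only, and the part of these markers in the *F11r* values was not tested. The log2 fold changes of *Ocln* (-1.46, SE 1.22), *Tjp1* (-0.49, SE 0.53) and *Jam2* (0.77, SE 0.67) had limma adjusted p of 0.606, 0.703 and 0.622. *Ocln* was at 0 and *Tjp1* at 71 in ipsilateral PC replicate 3, and without this library their log2 fold changes were -0.19 and 0.05 and 72 genes in all were called in PC instead of 139, still with 0 of the 9. *Cldn5* (-0.03) and *Cldn12* (-0.26) in PC lay near 0 relative to their errors of 0.37 and 0.41.

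In AC, 0 of the 9 genes were called, against 0.341% of 15264 genes (0 against 1.59% with the replicate block), and 0 had an unadjusted p under 0.05, against 9.28% of all genes. *Jam2* had 1062, 2007.5 and 3048 normalized counts in ipsilateral AC, lower than its contralateral partner in 6 of 6 pairs although the ranges overlapped. Its log2 fold change was -0.34 (SE 0.30, limma adjusted p = 0.8, and 0.306 with the replicate block). Pericyte marker sums (medians 6287 and 3692.5) and ependymal marker sums (1797.5 and 685.5) in AC were also lower in 6 of 6 pairs. Astrocyte marker sums were higher ipsilaterally in 1 of 6, and the part of these markers was not tested. *Cldn12*, the claudin higher in AC than in EC, was higher ipsilaterally in 5 of 6 pairs at 0.40 (SE 0.32; limma adjusted p = 0.764). *Tjp1* was nearly level, with medians of 753.5 contralaterally and 747.5 ipsilaterally and a log2 fold change of 0.09 (SE 0.22; 95% interval -0.39 to 0.56). The high *Ocln* values of AC replicates 5 and 6 recurred ipsilaterally, at 662 and 1171 against 71 to 206 in the others.

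In MG, 3 of the 9 genes were called, *Tjp1*, *Jam2* and *F11r*, all lower, where 10.6% of 13300 genes were called and 6.27% were called lower. The same 3 genes were called with the replicate block, where 11.0% of all genes were. At an unadjusted p under 0.05, *Marveld2* was added, which made 4 of the 9, where 3725 of 13300 genes were. The median log2 fold change of the 9 genes was -0.28, and that of all genes tested was -0.18, so that MG values as a whole lay below 0.

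*Tjp1* had 629, 735.5 and 889 normalized counts in contralateral MG and 301, 386 and 602 in ipsilateral MG. The hemispheres did not overlap. The log2 fold change was -0.89 (SE 0.19; 95% interval -1.29 to -0.48; limma adjusted p = 0.00866; 0.0223 with the replicate block). For *Jam2* the values were 720, 935.5 and 1178 contralaterally and 424, 560.5 and 658 ipsilaterally, again without overlap. Its log2 fold change was -0.75 (SE 0.17; 95% interval -1.11 to -0.39; limma adjusted p = 0.0118; 0.0237 with the replicate block). Both genes were lower in 6 of 6 pairs.

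*F11r*, the gene for which MG had the highest level, fell in MG from 7889, 9311.5 and 12421 normalized counts contralaterally to 1676, 5770.5 and 8672 ipsilaterally. All 6 pairs were lower, but the highest ipsilateral value overlapped the contralateral range. The log2 fold change was -1.08 (SE 0.33; 95% interval -1.78 to -0.38; limma adjusted p = 0.0471; 0.0207 with the replicate block). The lowest value, 1676, was that of ipsilateral MG replicate 2, and without this library the 3 genes were still called, with limma adjusted p of 0.000715 (*Tjp1*), 0.00342 (*Jam2*) and 0.0278 (*F11r*).

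The calls were lost in 3 of 16 alternatives for *Tjp1*, 4 of 16 for *Jam2* and 10 of 16 for *F11r*. Not all of those for *F11r* are listed here. None of the 3 was called in the joint fit of the 48 libraries or with replicates 1 to 4 only. *Tjp1* lost its call without replicate 3 (limma adjusted p = 0.0512), *Jam2* without replicate 1 (0.0543) or 3 (0.0591) and *F11r* without replicate 1 (0.0885), 3 (0.14), 4 (0.113) or 6 (0.0741), while the log2 fold change stayed negative for each. All 3 calls were thus lost without the replicate 3 pair, whose ipsilateral library was the shallowest and had the lowest ipsilateral MG values of *Tjp1*, 301, and *Jam2*, 424. Without that ipsilateral library alone, a fit chosen after seeing the data, *Tjp1* (-0.80; limma adjusted p = 0.0233) and *Jam2* (-0.67; 0.0314) were called and *F11r* (-0.96; 0.107) was not, and 917 genes in all were called instead of 1404. Without ipsilateral MG replicate 2, 2001 genes were called. Over the alternatives other than the grouping by sample titles, for which only counts were computed, the adjusted p ran from 0.000715 to 0.148 for *Tjp1*, 0.00342 to 0.307 for *Jam2* and 0.0207 to 0.175 for *F11r*. The 10 microglia markers, among them *Tmem119* and *P2ry12*, summed to 472275 to 559602 in contralateral MG and 235890 to 389800 in ipsilateral MG, lower in 6 of 6 pairs without overlap. Astrocyte marker sums in MG had medians of 5069.5 contralaterally and 2658.5 ipsilaterally and were higher ipsilaterally in 1 of 6 pairs. Platelet marker sums had medians of 447.5 and 1017 and were higher in 5 of 6. The part of these markers in the change of the 3 genes was not tested.

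*Marveld2* in MG had 29, 73.5 and 95 normalized counts contralaterally and 0, 27.5 and 72 ipsilaterally, with 2 ipsilateral libraries at 0, and its log2 fold change of -2.40 (SE 1.04) did not pass (limma adjusted p = 0.146). *Cldn5* (0.66, SE 0.77), *Esam* (0.40, SE 0.56) and *Cdh5* (1.22, SE 0.86) were above 0 without passing, with limma adjusted p of 0.6, 0.674 and 0.371. Each had its highest MG value in ipsilateral replicate 4, at 1346, 1185 and 74, the library that also had the highest endothelial marker sum in MG, 3443 against 434 to 1460 in the other ipsilateral libraries. *Ocln* (-0.28, SE 0.43) and *Cldn12* (0.16, SE 0.38) did not pass.

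**Figure D4:**
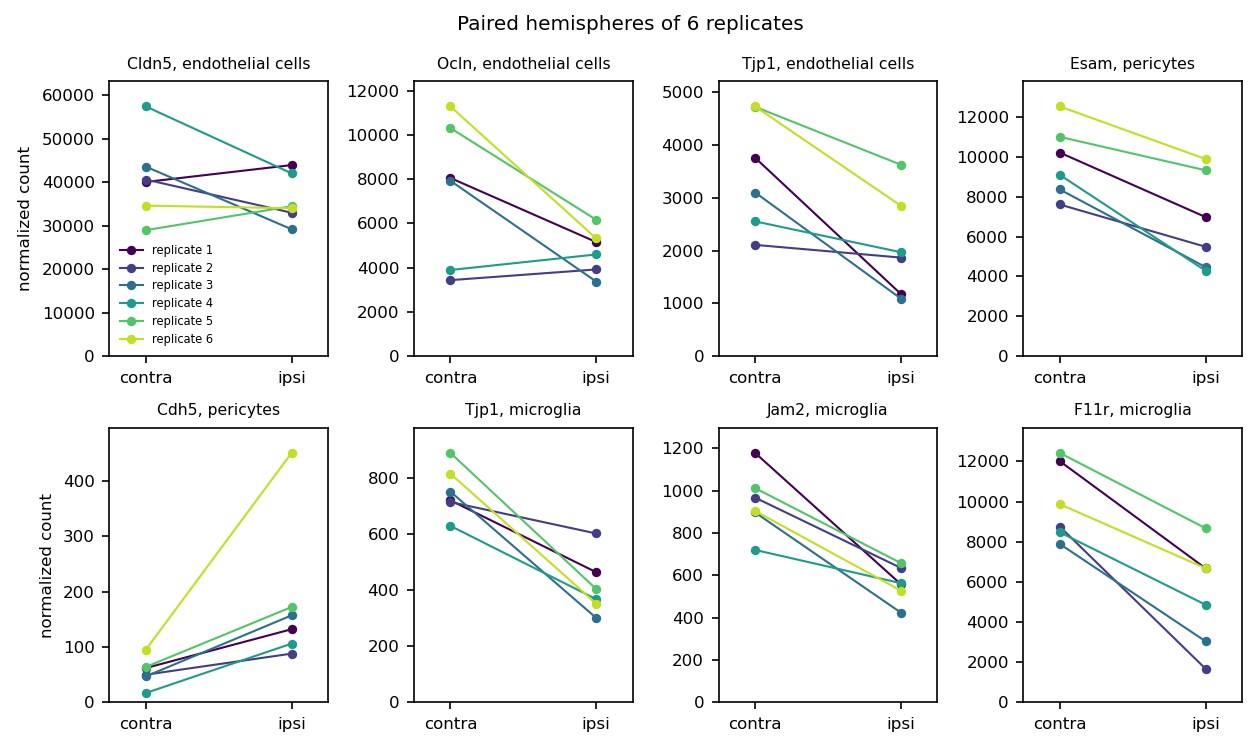
Normalized counts of contralateral and ipsilateral libraries joined by replicate for *Cldn5*, *Ocln* and *Tjp1* in EC, *Esam* and *Cdh5* in PC, and *Tjp1*, *Jam2* and *F11r* in MG. Each line is 1 replicate number. The ipsilateral end is the lower in every line for *Tjp1* in EC and MG, *Esam* in PC, and *Jam2* and *F11r* in MG, it is the higher in every line for *Cdh5* in PC, and lines of both directions are seen for *Cldn5* and *Ocln* in EC.

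Whether the change in EC differed from that in the other cell types was tested as an interaction in the fit of 48 libraries, in which a call required only a limma adjusted p of at most 0.05. None of the 9 genes was called for EC against PC, AC or MG, beside 0.0267%, 0.0600% and 0.273% of all genes. At an unadjusted p under 0.05 the counts were 0, 0 and 1, against 7.95%, 5.45% and 11.0% of all genes. The single gene was *F11r*, whose change in EC minus that in MG was 1.42 on the log2 scale (SE 0.66; 95% interval 0.08 to 2.76; limma adjusted p = 0.422). With the replicate block 0 were called, and 1, 0 and 2 had an unadjusted p under 0.05, where 1601, 1136 and 2178 of 15003 genes did. These were *Jam2* against PC (-1.10; limma adjusted p = 0.207), and *F11r* (1.42; 0.283) and *Marveld2* (3.38; 0.249) against MG. For *Tjp1*, EC and MG changed by values 0.08 apart (95% interval -0.96 to 1.12), and for *Cldn5* the difference was -0.82 (95% interval -2.62 to 0.98).

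Besides these 9 genes, 48 other junction genes were examined, in groups of claudins and tetraspan proteins, cytoplasmic scaffolds, immunoglobulin-like proteins and adherens junction proteins. In EC 0 of the 42 that were tested were called and 5 had an unadjusted p under 0.05, a share equal to the 11.9% of all genes. The lowest p belonged to *Ptprb*, encoding the VE-cadherin-associated phosphatase VE-PTP and also counted among the endothelial markers above, with 13417, 15880.5 and 19934 normalized counts contralaterally and 5422, 10525 and 16599 ipsilaterally. It was lower in 6 of 6 pairs at -0.73 on the log2 scale (SE 0.26; limma adjusted p = 0.246). Of the 5 genes, 2 were higher, both in the immunoglobulin-like group. In EC *Clmp* was higher ipsilaterally in 6 of 6 pairs (medians 12.5 and 46.5), *Jam3* and *Nectin2* in 5 and *Rasip1* in 4. *Jcad* and *Ctnnd1* were lower in 5 of 6 and *Ildr2* in 4. In PC 1 of 44 was called, where 1.02% of all genes were. This was *Jam3*, encoding JAM-C, which was lower, with 1228, 1596.5 and 1902 normalized counts contralaterally and 734, 951.5 and 1081 ipsilaterally, without overlap. Its log2 fold change was -0.76 (SE 0.16, limma adjusted p = 0.0374). In PC, smooth muscle marker sums were higher ipsilaterally in 0 of 6 pairs, pericyte marker sums in 1 and microglia marker sums in 5. The part of these markers in the *Jam3* values was not tested. In MG 1 of 36 was called, a smaller share than the 10.6% of all genes. It was *Ildr2*, encoding an angulin of tricellular junctions, which was lower, with 46, 103.5 and 173 contralaterally and 2, 14 and 57 ipsilaterally. Its log2 fold change was -2.72 (SE 0.70, limma adjusted p = 0.0229). The ranges overlapped, 1 of 6 pairs was higher ipsilaterally, and the value of 2 could not be told from 0 at this depth. In AC 0 of the 44 tested were called, where 0.341% of all genes were, and 3 had an unadjusted p under 0.05, where 9.28% did. With the replicate block 1 was called there, *Cldn10* (-0.91; limma adjusted p = 0.0421, against 0.317 without the block), where 1.59% of all genes were.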

How the data were processed

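The authors sorted the cells, made SMART-Seq HT libraries from about 250 pg of RNA and, per their methods and processing notes, trimmed reads with Trimmomatic 0.38, aligned them to mm10/GRCm38 with STAR 2.6.1d and counted exonic reads with featureCounts 1.6.3. The deposited table holds counts that the authors normalized with DESeq2 1.18.1 and rounded to whole numbers, a score and not raw counts, so the count test planned at first was replaced. Values were tested as log2(value + 1) with limma 3.58.1 in R 4.3.3 (eBayes with trend, Benjamini-Hochberg adjustment over all genes with a mean of at least 10). Stroke changes were fitted within each cell type over 12 libraries, and cell types and interactions over all 48. The fits were tested on simulated data. Figures and summaries used Python 3.11.15. Depth limits cover counting error only, and amplified reads without molecular identifiers are not independent molecules.

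The 9 genes were named by the rule, and other junction genes were named when called or when lowest in p in EC. Members and gene lists were chosen with earlier results of these data known. Same-numbered libraries of both hemispheres were taken as pairs from the same pools of mice, which the sample labels do not state. Their deviations from the group means correlated at a mean r of 0.23 in EC, 0.23 in PC, 0.38 in AC and 0.14 in MG. Between different numbers the mean r was -0.04, -0.04, -0.08 and -0.03. The lowest r of a same-numbered pair was 0.01 in EC, -0.07 in PC, 0.02 in AC and -0.03 in MG. The main fit had no block. Alternatives were the replicate block, other pseudocounts (0.1 and 10), rescaling, filters, omitted replicates, replicates 1 to 4 alone, a joint fit and cell types from the sample titles, the last for counts only, so that no range of adjusted p includes it.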

Additional observations from a re-analysis of the deposited data

Results flagged for a closer look

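Among 72 groups of 6 libraries (9 genes in 8 groups), 8 single values stood farther from the other 5 than Dixon's 95% limit allows, where a nominal 1 in 20 would give about 3.6. That rate holds for normally distributed values in independent groups. Here the values were untransformed normalized counts and the genes shared libraries, so no excess is read from it. Of the 8 values, 4 lay in ipsilateral MG replicate 4, in which *Cldn5* was at 1346 normalized counts (49 to 499 in the other libraries of its group), *Ocln* at 313 (63 to 156), *Esam* at 1185 (134 to 488) and *Cdh5* at 74 (12 to 28). The summed level of the 10 endothelial markers in that library was 3443, against 434 to 1460 in the others of the group, and its part in these values was not tested. In contralateral EC replicate 2, *F11r* was at 1599 normalized counts (4800 to 5413 in the others) and *Esam* at 18869 (29132 to 33899), in a library with an endothelial marker sum of 112525 against 141727 to 225121. *Cdh5* in ipsilateral PC replicate 6 was at 450 normalized counts (88 to 172 in the others), with an endothelial marker sum of 13765 against 1480 to 4071. *Marveld2* in contralateral PC replicate 6 was at 38 normalized counts (0 to 11 in the others).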

How the results depend on the processing

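Of 1251 values of the 9 genes recomputed over 91 comparisons, 1204 kept their direction and their side of the threshold, 24 kept the direction but were no longer called, 2 became called and 21 changed sign, none of them a called value. The count of the 9 genes called in MG, 3 as reported, was 0 to 3 when 1 replicate was left out, 0 with replicates 1 to 4 only, 0 in the joint fit of the 48 libraries and 7 with cell types from the sample titles, which also gave 5 in PC in place of 0; the title grouping compares different cell types by construction. The replicate block left these counts at 0 in EC, PC and AC and 3 in MG and added 1 other junction gene in AC, *Cldn10* (-0.91; limma adjusted p = 0.0421). It changed no other stroke call of the 9 genes. Depth limits *Marveld2* in PC, AC and ipsilateral MG, *Cdh5* in AC and contralateral MG, and *Ocln* in ipsilateral PC, where some libraries were at or near 0. It also limits the other junction gene *Ildr2* in ipsilateral MG, where the lowest value was 2.

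Sign changes of values that were not called had these sizes, as log2 fold changes. Leaving out single replicates gave -0.41 to 0.73 for *Cldn12* in EC, -0.30 to 0.22 for *Cldn5* and -0.69 to 0.02 for *Tjp1* in PC, -0.51 to 0.04 for *Ocln*, -0.12 to 0.18 for *Tjp1* and -0.82 to 0.32 for *F11r* in AC, -0.54 to 0.03 for *Ocln* and -0.02 to 0.31 for *Cldn12* in MG, and -0.12 to 0.38 for *F11r* in ipsilateral EC minus MG. Replicates 1 to 4 gave -0.03 for *Cdh5* in EC, 0.05 for *Cldn12* in PC and 0.10 for *Ocln* in AC, and rescaling gave 0.03 for *Cldn5* in PC. Chosen after seeing the data, the fit without contralateral EC replicate 2 gave -0.31 for *Cldn12* in EC, and that without ipsilateral PC replicate 3 gave 0.12 for *Cldn5* and 0.05 for *Tjp1* in PC. The fits without contralateral PC replicate 2, also chosen after seeing the data, gave 0.17 for *Cldn5* in PC, where 205 genes in all were called instead of 139, and changed no other direction and no call of the 9 genes. The fits without ipsilateral MG replicate 2 or 3 were likewise chosen after seeing the data. The cause of these changes was not tested.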

Other observations

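Over the 48 libraries, the genes whose log2 levels ran closest to each junction gene, among 12446 genes whose mean reached 100 normalized counts, were listed by Pearson r as a description; the libraries are of 4 cell types, so r carries the differences between cell types. Closest to *Cldn5* were *Ly6c1* (r = 0.987), *Ly6a* (0.982) and *Flt1* (0.98), genes known from brain endothelium. For *F11r* they were *Rin3* (0.949), *Lgals9* (0.918) and *Ier5* (0.914), and for *Esam*, which PC also held, *Jcad* (0.96), *Hrct1* (0.955) and *Cd200* (0.953). *Jam2* ran closest to *Vcam1* (0.919), *Selenop* (0.899) and *Slc16a1* (0.877), and *Tjp1* to *Map4k2* (0.918), with *Ocln* the second (0.88). The other claudin, *Cldn12*, ran closest to *Abcb9* (0.876), *Oplah* (0.875) and *Tmem63b* (0.863). Values were lower for *Marveld2*, whose closest gene was *B4galt4* (0.825). *Jcad*, an endothelial junction protein gene, had 10114, 39791 and 53387 normalized counts as lowest, median and highest in contralateral EC and 10553, 15887 and 32891 in ipsilateral EC, lower in 5 of 6 pairs at -0.90 on the log2 scale (limma adjusted p = 0.381).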
